A study of Mus musculus with 8 samples.

Results

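The insulin-like growth factor (IGF) genes examined here were 10 genes chosen by name, of 55573 genes listed in the files: the ligands Igf1 and Igf2, the receptors Igf1r and Igf2r, and the binding proteins Igfbp2, Igfbp3, Igfbp4, Igfbp5, Igfbp6 and Igfbp7. All 10 were found in the counts by their GENCODE M21 symbols. Their transcripts were read in mouse colon fibroblasts of the C57BL6/J strain, cultured flat on plastic in Advanced DMEM F12 with 10% FBS. All 8 libraries came from cells treated with APTKA conditioned medium, so no comparison without that medium was analysed here. In 4 libraries the cells had not been irradiated, and in the other 4 they had received 3 doses of 2 Gy, with collection 72 h after the first dose. The labels give no genotype, age or sex, and they do not say whether the replicates (I to IV) came from separate animals or cultures. The p-values below thus reflect variation among libraries, part or all of which may be technical. The series title places the work in the study of inflammatory fibroblasts and therapy resistance in rectal cancer.

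IGF1 and IGF2 are secreted peptides that promote growth and survival through the receptor tyrosine kinase IGF1R, which signals to PI3K-AKT and ERK. IGF2R, the cation-independent mannose 6-phosphate receptor, clears IGF2 from the cell surface and carries lysosomal enzymes, without a kinase of its own. The binding proteins hold IGFs in the extracellular fluid and matrix, with high affinity in the case of IGFBP2 to IGFBP6 and low affinity for IGFBP7, and proteases release the ligand again. Fibroblasts are a common source of these secreted factors in connective tissue.

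The binding protein genes Igfbp6 and Igfbp4 had lower relative levels in irradiated cells, 0.760-fold and 0.866-fold those of cells not irradiated. No ligand or receptor gene passed the test. Levels are given as CPM, counts scaled to library size with TMM factors. Calls rest on edgeR's quasi-likelihood test over 15259 genes, with Benjamini-Hochberg adjusted p-values and a threshold of 0.05. Of the 10 members 7 had enough counts to be tested, and 2 were called lower and 0 higher, against 4.15% of all tested genes called lower and 2.59% called higher (6.74% in all). At an unadjusted p under 0.05 the members counted the same, 2 lower and 0 higher, beside 11.7% of all tested genes lower and 9.5% higher (21.2% in all), and DESeq2 and limma-voom also called 0 higher. The median log2 fold change of the 7 tested members was -0.21, beside 0.00 over all tested genes. This median is the value of Igfbp4 and shows no shift of the whole family. Below it lay Igfbp6 (-0.40) and, with few counts and not called, Igf1 (-0.26) and Igfbp5 (-0.27). Igf1r, Igf2r and Igfbp7 lay from -0.05 to 0.04. CPM is relative to the other genes of a library and gives no amount per cell. In these bulk samples, fewer cells that express a gene and a lower share of its RNA in each cell cannot be told apart.

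The promoters of the 3 most abundant binding protein genes by CPM are shown because Igfbp4 and Igfbp6 fell together and Igfbp7 did not pass the test. The windows run from 250 bases before to 50 after the RefSeq start of each gene (GRCm38.p6), 5′ to 3′ on the gene's strand. Capitals mark matches on either strand to the motifs searched. These were the TATA box as TATAAA, the CCAAT box by those letters, the GC box as GGGCGG, the E-box as CACGTG, the FOXO motif as TGTTTAC and the p53 half-site by its consensus. These motifs do not overlap one another in the windows shown.
Igfbp4, chr11:99040994-99041293, plus strand: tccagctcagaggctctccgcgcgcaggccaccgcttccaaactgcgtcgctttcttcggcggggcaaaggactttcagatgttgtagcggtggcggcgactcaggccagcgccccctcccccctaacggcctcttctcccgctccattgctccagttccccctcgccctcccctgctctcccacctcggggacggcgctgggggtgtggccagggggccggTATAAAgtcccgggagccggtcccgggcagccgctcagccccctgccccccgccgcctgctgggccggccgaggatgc
Igfbp6, chr15:102143936-102144235, plus strand: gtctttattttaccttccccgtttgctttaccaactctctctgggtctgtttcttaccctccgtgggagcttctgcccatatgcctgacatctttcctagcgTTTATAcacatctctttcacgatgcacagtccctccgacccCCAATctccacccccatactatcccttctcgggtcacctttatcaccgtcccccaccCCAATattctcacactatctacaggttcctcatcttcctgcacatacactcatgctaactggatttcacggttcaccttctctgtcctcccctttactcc
Igfbp7, chr5:77407996-77408295, minus strand: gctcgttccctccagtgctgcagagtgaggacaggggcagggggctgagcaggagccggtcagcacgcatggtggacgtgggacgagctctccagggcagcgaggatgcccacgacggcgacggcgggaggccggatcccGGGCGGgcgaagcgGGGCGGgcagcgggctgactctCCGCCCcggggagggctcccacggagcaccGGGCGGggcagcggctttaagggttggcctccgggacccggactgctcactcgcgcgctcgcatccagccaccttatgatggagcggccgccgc
The Igfbp4 window held 1 TATA box on the gene's strand, from 28 to 23 bases before the start, and no other match. The Igfbp6 window held 1 TATA box match on the strand opposite to the gene (TTTATA as printed), from 148 to 143 bases before the start, and 2 CCAAT boxes. The RefSeq start of Igfbp6 lies 176 bases upstream of the GENCODE start of the gene (102144362, 1 annotated transcript). The printed window ends at 102144235 and so holds no base of the GENCODE gene. It may miss the start used in these cells, and its matches and GC content are not set at a like position to those of the other windows. The Igfbp7 window held 4 GC boxes and no TATA box. Among 32851 mouse promoter windows of the same length, 13.6% held the TATA box, 37.4% the CCAAT box, 35.7% the GC box, 7.15% the E-box, 3.65% the FOXO motif and 8.36% a p53 half-site. GC content was 71.3% for Igfbp4, 49.7% for Igfbp6 and 73.3% for Igfbp7, beside a median of 52.7% over all windows. These matches describe the letters of the windows only.

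The libraries held 28731227 to 37157216 counts. A gene at 0 in 1 library is compatible with up to 3 counts, 0.0812 to 0.105 CPM at these depths, which covers counting error only. Mitochondrial rRNA (mt-Rnr1 plus mt-Rnr2) was high in the first pair of irradiated libraries, I at 15129 and II at 15263 CPM of total counts, and ran from 4179 to 5934 CPM in the remaining 6. All 11 fibroblast markers averaged at least 1 CPM, with Col1a2 and Vim called lower and 0 called higher. Their summed level, led by the collagen genes Col3a1 and Col1a2, ran from 16240 to 19080 CPM without irradiation and from 14800 to 16120 CPM with it. Pdpn, Dcn and Lum had positive log2 fold changes (0.08, 0.06 and 0.10, not called), and the remaining fibroblast markers negative ones. None of 10 epithelial, 6 enteric glial or neuronal and 5 mesothelial markers reached a mean of 1 CPM. Among the 7 endothelial markers 1 did (Kdr), among the 8 macrophage and leukocyte markers 1 (Cd68), and among the 3 markers of interstitial cells of Cajal 1 (Etv1). The defining markers Epcam, Ptprc and Cdh5 averaged at most 0.0508 CPM in either group. Of the 7 smooth muscle and pericyte markers 4 reached 1 CPM, led by Actg2, which fell (log2 fold change -0.20, adjusted p = 0.0263), while Notch3 rose (0.27, adjusted p = 0.0109).

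Levels of different genes were compared per exon length, as RPKM (TMM-scaled CPM per kilobase of merged exons in GENCODE M21). The merged length counts exons of all annotated isoforms, used here or not. Without irradiation the order was Igfbp7 at 74.5 ± 2.02 RPKM, Igf2r at 55.5 ± 2.21, Igfbp6 at 45.6 ± 5.27, Igf1r at 11.9 ± 0.445, Igfbp4 at 6.61 ± 0.382 and Igf1 at 0.282 ± 0.0316 RPKM (SD, n = 4). Igfbp7 stood above 97.0% of the tested genes on this scale and Igf1 above 12%. The remaining members were Igfbp5 at 0.0735 ± 0.00825 RPKM, Igfbp3 at 0.0395 ± 0.0405 RPKM, and Igfbp2 and Igf2, both listed at 0 in all 4 libraries. The order of the means was the same in irradiated cells. Igfbp5 and Igfbp3 were neighbours whose libraries overlapped in both groups, and the libraries of every other neighbouring pair down to Igfbp5 were separate in both groups.

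**Figure D1:**
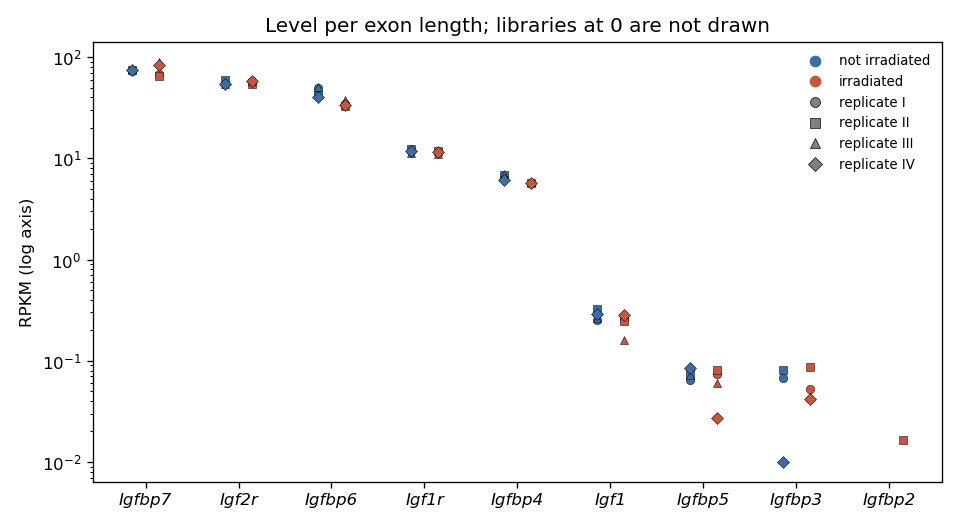
Level per exon length (RPKM, log axis) of the 9 members with at least 1 count, 1 point per library, with libraries not irradiated in blue and irradiated in red and the replicate as the symbol. Libraries at 0 are not drawn, and Igf2 was at 0 in all libraries. Igfbp7, Igf2r and Igfbp6 lie above 33 RPKM in every library, and Igf1 stays below 0.33 RPKM.

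Igf1 encodes the main growth-promoting ligand (ENSMUSG00000020053, chromosome 10, 87858265 to 87937042, plus strand, mm10). It was rare in these cultures, with 58 to 101 counts per library. Libraries I to IV stood at 2.51, 3.21, 2.60 and 2.84 CPM without irradiation and at 2.57, 2.42, 1.60 and 2.80 CPM with it. Irradiated III was the lowest library, and the groups overlapped. The means were 2.79 ± 0.313 and 2.35 ± 0.524 CPM (SD, n = 4), with a log2 fold change of -0.26 (SE 0.16, 95% interval -0.60 to 0.09) and an adjusted p = 0.396. The interval leaves room for a fall of more than 1.5-fold at this depth.

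Igf2, the fetal growth ligand and an imprinted gene (ENSMUSG00000048583, chromosome 7, 142650766 to 142666816, minus strand), had 0 counts in all 8 libraries. This count may not reflect the transcript. Of its 5723 exon bases 3694 are shared with another annotated gene, 3596 of them with Gm49394 on the same strand, which was also at 0 counts. The counting of reads that fit more than 1 gene is not given in the sources used here. The 2029 exon bases that no other gene shares gave no count either. The neighbouring imprinted RNA H19 stood at 0.315 ± 0.107 CPM without irradiation and 0.261 ± 0.0890 CPM with it, too low to be tested. Of the RNA-binding proteins named after Igf2 mRNA, Igf2bp2 was abundant at 177 ± 5.95 and 174 ± 3.81 CPM (adjusted p = 0.762 at a log2 fold change of -0.02). Igf2bp3 had the smallest adjusted p of this list (log2 fold change -0.24, adjusted p = 0.442), and 0 of its 3 tested genes were called.

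Igf1r, the signalling receptor (ENSMUSG00000005533, chromosome 7, 67952827 to 68233668, plus strand), was steady across libraries. It stood at 201, 208, 190 and 200 CPM in libraries I to IV without irradiation and at 194, 198, 185 and 194 CPM with it. Replicate III was the lowest library in both groups, and the groups overlapped. The log2 fold change was -0.05 (SE 0.04, 95% interval -0.13 to 0.03) with an adjusted p = 0.488. The insulin receptor gene Insr, whose product can pair with IGF1R in hybrid receptors, was at 106 ± 3.81 and 111 ± 3.66 CPM (adjusted p = 0.382 at a log2 fold change of 0.07). Per length, Insr stood at 0.647 ± 0.0286 of the Igf1r level without irradiation and at 0.701 ± 0.00792 with it (ratio of RPKM, SD, n = 4).

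Igf2r, the clearance receptor (ENSMUSG00000023830, chromosome 17, 12682406 to 12769664, minus strand), was the more abundant receptor gene. Libraries I to IV held 505, 547.5, 510 and 505 CPM without irradiation and 536, 508, 543.5 and 545 CPM with it. The library not irradiated with numeral II was higher than every irradiated library, so the groups overlapped. The log2 fold change was 0.04 (SE 0.04, 95% interval -0.04 to 0.13) with an adjusted p = 0.558. Per length, Igf2r exceeded Igf1r by a ratio of 4.68 ± 0.159 without irradiation and 5 ± 0.284 with it, from 4.54 to 5.31 over the 8 libraries. Airn, the noncoding RNA transcribed antisense through the imprinted Igf2r locus, was at 7.49 ± 0.439 and 6.93 ± 0.481 CPM (adjusted p = 0.450).

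Igfbp6, a binding protein that prefers IGF2 over IGF1, had the smallest adjusted p of the members. Its gene (ENSMUSG00000023046) lies on chromosome 15 from 102144362 to 102149511, plus strand. Without irradiation libraries I to IV stood at 55.2, 47.1, 56.1 and 44.4 CPM, and with it at 38.0, 36.9, 41.5 and 37.7 CPM. Every irradiated library was below every library not irradiated, and the latter were also the more spread. The mean fell from 50.7 ± 5.86 to 38.5 ± 2.07 CPM (SD, n = 4), a log2 fold change of -0.40 (SE 0.07, 95% interval -0.55 to -0.24, adjusted p = 0.00415). Of all tested genes 7.19% had a larger absolute log2 fold change. The call was kept without any single library, with an adjusted p of at most 0.0179. Without both irradiated I and II, the libraries rich in mitochondrial rRNA, the log2 fold change was -0.36 and the adjusted p = 0.0636, although irradiated III and IV both stayed below the lowest library not irradiated. Without libraries I and III of those not irradiated, at 55.2 and 56.1 CPM, the log2 fold change shrank to -0.25 (adjusted p = 0.0196). The summed fibroblast markers, led by collagen genes, were also lower, though not every marker fell, and their part in the result was not tested.

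Igfbp4, a binding protein that withholds IGFs from the receptor until it is cleaved (ENSMUSG00000017493, chromosome 11, 99041244 to 99054392, plus strand), was also lower. Libraries I to IV stood at 28.5, 30.4, 30.7 and 27.1 CPM without irradiation and at 25.2, 24.9, 25.5 and 25.4 CPM with it. The groups did not overlap, and the irradiated libraries lay within 1 CPM of each other. The mean fell from 29.2 ± 1.69 to 25.3 ± 0.273 CPM (SD, n = 4), a log2 fold change of -0.21 (SE 0.05, 95% interval -0.32 to -0.10, adjusted p = 0.0237). This call was near the threshold and was lost without 6 of the 8 libraries, each taken alone (not irradiated II or III, or any irradiated library), with adjusted p from 0.0551 to 0.0736. With irradiated I and II both left out, the log2 fold change was -0.20 and its adjusted p = 0.170. With libraries I and III of those not irradiated left out, the log2 fold change was -0.19 and the call was also lost (adjusted p = 0.0845). Groups without overlap were found for 2 of the 7 tested members, both lower, beside 14.2% of all tested genes (8.07% lower and 6.13% higher).

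**Figure D2:**
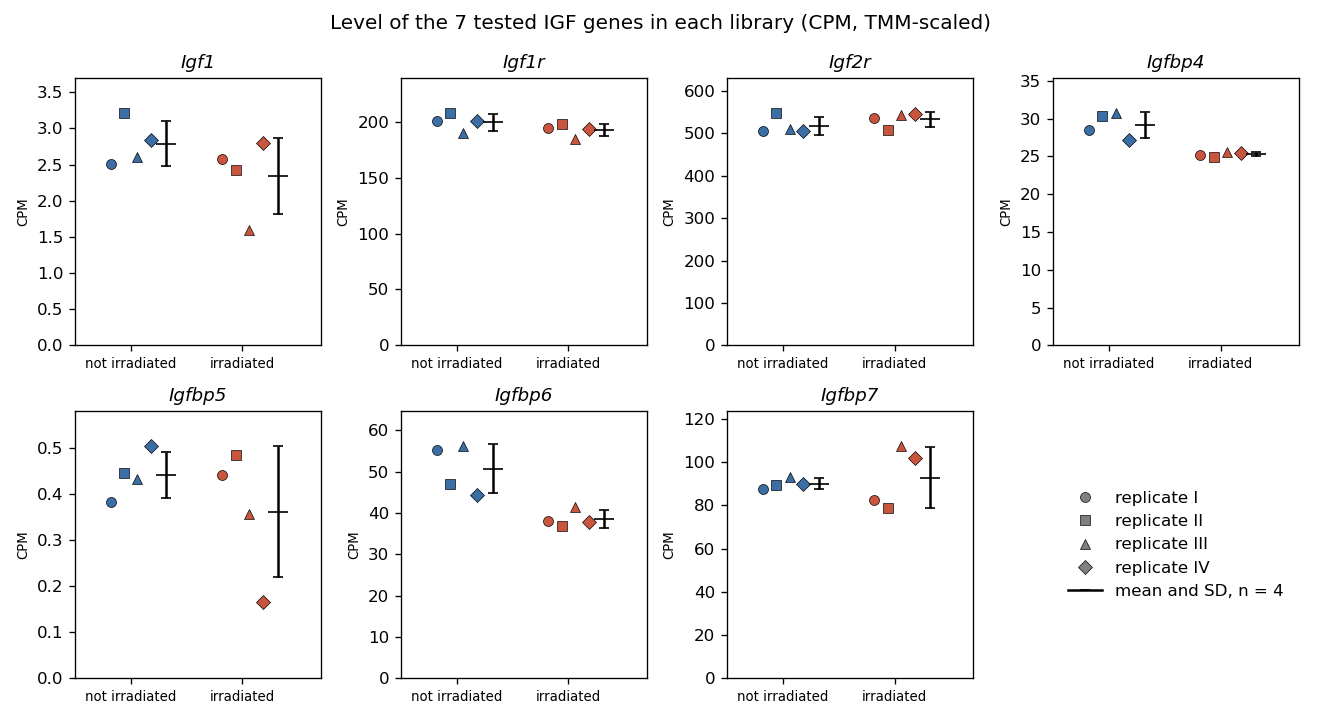
CPM (TMM-scaled) of the 7 tested members in each library, with 1 symbol per replicate, libraries not irradiated in blue, irradiated in red, and mean with SD (n = 4) as a black bar. The irradiated libraries lie below all others for Igfbp4 (24.9 to 25.5 CPM) and Igfbp6 (36.9 to 41.5 CPM), and the groups overlap in the other 5 panels.

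Igfbp7, a secreted protein of the matrix and vessel walls with low IGF affinity (ENSMUSG00000036256, chromosome 5, 77349240 to 77408041, minus strand), split the irradiated libraries. Without irradiation libraries I to IV lay close together at 87.4, 89.7, 93.3 and 89.7 CPM. With it, I and II stood at 82.6 and 79.0 CPM, below all of those, and III and IV at 107 and 102 CPM, above all of those. The means were 90.0 ± 2.44 and 92.8 ± 14.1 CPM (SD, n = 4), with a log2 fold change of 0.04 (SE 0.08, 95% interval -0.13 to 0.22, adjusted p = 0.820). The low pair were the irradiated libraries with 15129 and 15263 CPM of mitochondrial rRNA, against 4358 and 5934 CPM in the high pair, and the part of this difference in the result was not tested. Without both irradiated I and II the log2 fold change was 0.22 and the gene was called higher (adjusted p = 0.0384). That pair was chosen after the data were seen, and leaving it out keeps only the high irradiated libraries. The direction of this fit was thus fixed by the choice, and its adjusted p is no test of a rise. Without irradiated III or IV, each left out alone, the log2 fold change was -0.04 and 0.00. The exons of Igfbp7 share 85 bases with Polr2b on the opposite strand (199.6 to 216.2 CPM), and the strand setting of the counting is not given in the sources used here.

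**Figure D3:**
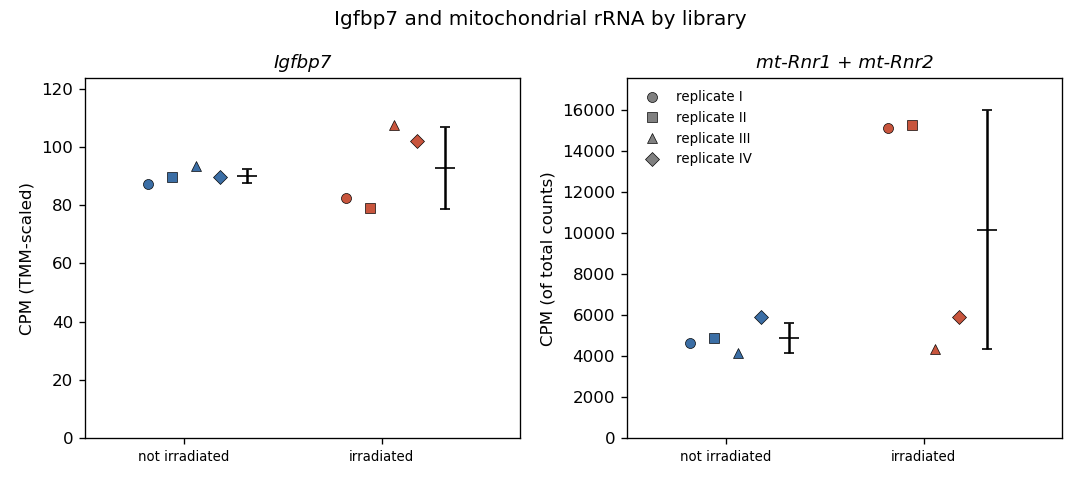
Left, Igfbp7 in CPM (TMM-scaled), and right, the summed 12S and 16S mitochondrial rRNA in CPM of total counts, by library, with the replicate as the symbol and mean with SD (n = 4) as a black bar. The irradiated libraries with 79.0 and 82.6 CPM of Igfbp7 are those with 15263 and 15129 CPM of mitochondrial rRNA.

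Igfbp5, Igfbp3 and Igfbp2 had few counts, at most 16 in any library. Igfbp5, a matrix-bound binding protein (ENSMUSG00000026185, chromosome 1, 72857932 to 72874884, minus strand), had 11, 14, 16 and 16 counts without irradiation and 16, 16, 13 and 5 with it. It was tested at 0.442 ± 0.0495 and 0.362 ± 0.142 CPM, and its log2 fold change of -0.27 had a 95% interval from -0.91 to 0.38 (adjusted p = 0.667). Igfbp3, the main carrier of IGF in blood (ENSMUSG00000020427, chromosome 11, 7206086 to 7213923, minus strand), had 6, 8, 0 and 1 counts without irradiation and 6, 9, 5 and 4 with it, and was not tested. Igfbp2 (ENSMUSG00000039323, chromosome 1, 72824503 to 72852474, plus strand) had 1 count over all libraries, in irradiated II. These 3 genes sit in tail-to-tail pairs: Igfbp2 and Igfbp5 face each other on chromosome 1 with 5457 bases between them, and Igfbp3 faces Igfbp1 on chromosome 11 with 3539 bases between them. Igfbp1, no member of the set, also had 1 count over all libraries. The abundant binding protein genes Igfbp4, Igfbp6 and Igfbp7 lie on chromosomes 11, 15 and 5.

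Summed per length, the binding proteins stood at 127 ± 6.24 RPKM without irradiation and 117 ± 13.1 RPKM with it, and the ranges overlapped. The high-affinity binding proteins alone (Igfbp2 to Igfbp6) stood at 52.3 ± 5.45 and 40.5 ± 1.89 RPKM, nearly all of it Igfbp6 and Igfbp4. Igfbp6 made up 35.9 ± 2.59% of the summed binding protein RPKM without irradiation and 29.7 ± 2.27% with it. Igfbp7 made up 58.8 ± 2.48% and 65.2 ± 2.78%. The libraries of the groups did not overlap for either share, from 56.2% to 61.7% for Igfbp7 without irradiation and from 62.6% to 68.0% with it. These sums and shares rest on members already described and were not tested.

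Genes related to the IGF members were read from 8 lists with 84 genes, of which 70 were tested. The lists hold genes that act on or below the members, and also relatives by sequence and the growth hormone axis. Of the 70 genes 4 were called higher and 3 lower, 10% in all beside 6.74% of all tested genes. The median log2 fold change of the 70 was -0.01. The calls lay in 2 lists, the proteases of binding proteins and the FOXO factors with their targets.

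Of 10 tested proteases and regulators, 2 were higher and 2 lower. Adam12, a membrane metalloprotease that cleaves IGFBP3 and IGFBP5, stood at 30.7, 30.1, 26.8 and 27.8 CPM without irradiation and at 21.1, 22.3, 20.2 and 22.4 CPM with it. It fell with a log2 fold change of -0.42 (SE 0.06, adjusted p = 0.000505), and the groups did not overlap. Htra1, a secreted serine protease with an IGFBP-like domain, stood at 192, 187, 208 and 182 CPM and then at 144, 145, 172 and 167 CPM. It fell with a log2 fold change of -0.29 (SE 0.06, adjusted p = 0.0118), and again the groups did not overlap.

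Ctsd, the lysosomal protease cathepsin D, averaged 344 ± 21.4 CPM without irradiation and 395 ± 9.20 CPM with it (SD, n = 4), a rise of 0.20 on the log2 scale (adjusted p = 0.0142). It shares 808 of its 2351 exon bases with Gm49369 on the same strand. Pappa, the metalloprotease that cleaves IGFBP4, was named after its values were seen. Its libraries I to IV stood at 34.5, 34.8, 33.6 and 36.0 CPM without irradiation and at 39.6, 39.8, 37.4 and 42.7 CPM with it. Pappa rose with a log2 fold change of 0.20 (SE 0.05, adjusted p = 0.0228), and its groups did not overlap. Its call was lost, at adjusted p as high as 0.0816, in 5 of the 8 fits that leave out a single library (I or III of those not irradiated, or irradiated I, II or IV). Stc2, an inhibitor of that protease, stood at 9.42 ± 0.4 and 8.88 ± 0.461 CPM (adjusted p = 0.526). In the fit that drops irradiated I and II, the calls of Htra1, Ctsd and Pappa were lost and that of Adam12 was kept (adjusted p = 0.00801). The log2 fold change of Htra1 was then -0.18 in place of -0.29 (adjusted p = 0.136), while Ctsd stood at 0.21 (adjusted p = 0.0800) and Pappa at 0.20 (adjusted p = 0.136), close to their values over all libraries. Without both libraries I and III of those not irradiated, the calls of Htra1 (log2 fold change -0.23, adjusted p = 0.0759) and Pappa (0.17, adjusted p = 0.0945) were lost as well. Mmp2, a secreted gelatinase, averaged 496 ± 28.8 CPM without irradiation and 549 ± 10.5 CPM with it (SD, n = 4), and its groups did not overlap. It was not called in the reported fit (adjusted p = 0.0545 at a log2 fold change of 0.15). Mmp2 passed in 8 of 17 alternative settings, DESeq2 (adjusted p = 0.0142) and limma-voom (0.0459) among them.

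**Figure D4:**
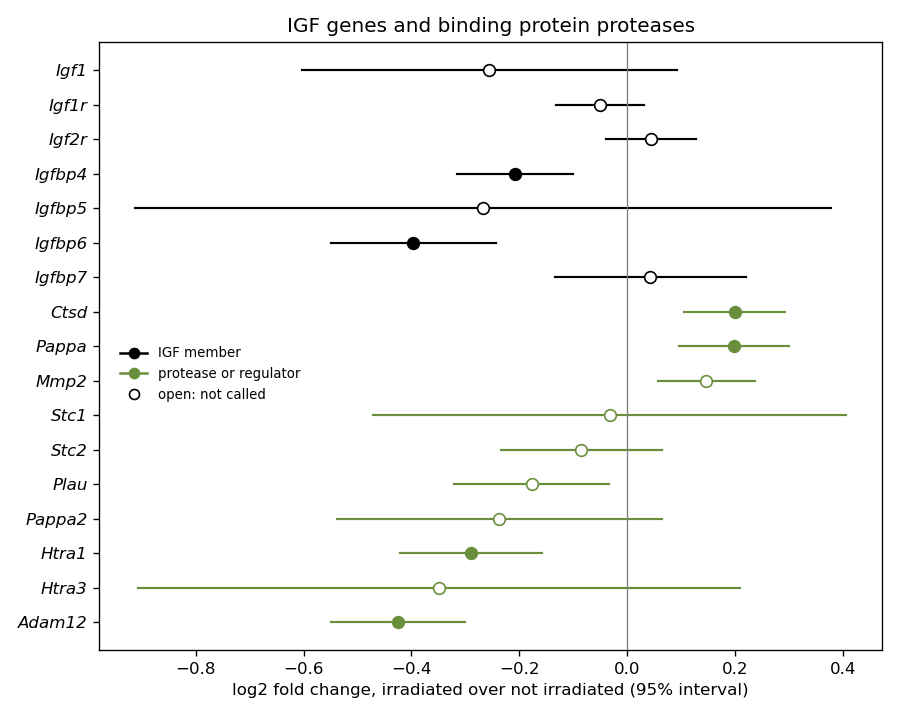
Log2 fold change, irradiated over not irradiated, with its 95% interval, for the 7 tested members (black) and the 10 tested proteases and regulators (green), filled where the adjusted p was under 0.05. Igfbp4, Igfbp6, Adam12 and Htra1 are filled to the left of 0, and Ctsd and Pappa to the right.

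Of 11 tested FOXO genes and FOXO targets, 2 were higher and 1 lower. AKT signalling restrains the FOXO factors, and the target genes listed here have other inputs as well. Pdk4, a kinase that limits pyruvate oxidation, averaged 14.9 ± 0.806 CPM without irradiation and 19.9 ± 1.16 CPM with it (SD, n = 4), a rise of 0.42 on the log2 scale (adjusted p = 0.000942). Fbxo32, a ubiquitin ligase, rose from 38.0 ± 1.72 to 42.3 ± 0.702 CPM, 0.15 on the log2 scale (adjusted p = 0.0469). In 11 of 17 alternative settings Fbxo32 missed the threshold, at adjusted p as high as 0.279. Trib3, a pseudokinase that binds AKT, averaged 18.0 ± 1.95 and 14.1 ± 0.538 CPM and was called lower (adjusted p = 0.0125 at a log2 fold change of -0.36). With irradiated I and II both left out Trib3 had a log2 fold change of -0.33 (adjusted p = 0.105), and with I and III of the other group left out -0.25 (adjusted p = 0.0877).

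No gene was called in the other 6 lists in the reported edgeR fit. All 13 receptor substrates and adaptors were tested, and Irs2, which links the IGF and insulin receptors to PI3K, had the smallest adjusted p (74.8 ± 3.70 and 83.5 ± 3.66 CPM, adjusted p = 0.0628 at a log2 fold change of 0.16). Irs2 passed in 4 alternative settings, DESeq2 among them (adjusted p = 0.0223). In this list 5 of 13 genes had an unadjusted p under 0.05, beside 21.2% of all tested genes, the share against which the counts at that threshold in the next lists are also to be read. All 19 genes of the PI3K, AKT and mTOR branch were tested, with log2 fold changes from -0.09 (Rptor, adjusted p = 0.256) to 0.10 (Pik3cb) and 0 at an unadjusted p under 0.05. The 7 genes of the growth hormone axis ranged from -0.09 (Stat5b, adjusted p = 0.327) to 0.07 (Ghr), with 0 at an unadjusted p under 0.05. The CCN family of matrix proteins, whose first domain resembles that of the binding proteins, had 5 tested genes, of which Ccn4 had the smallest adjusted p (log2 fold change -0.15, adjusted p = 0.112) and 1 an unadjusted p under 0.05. Ccn4 passed in 4 alternative settings, with an adjusted p = 0.0303 without library III of those not irradiated. Of the remaining IGF and insulin family 2 of 9 were tested, Insr and Kazald1 (log2 fold change 0.19, adjusted p = 0.292), and Ins1 and Ins2 had 0 counts.

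Among 9120 other genes with at least 10 CPM, those whose log2 CPM followed each abundant member most closely over the 8 libraries were listed as a description. All points share the library and its depth, and r includes any difference between the groups. The highest r among 9120 genes over 8 libraries is large through the selection itself. Igfbp6 was followed most closely by the matrix protease gene Adamts4 (Pearson r = 0.993) and by Rgl2 (0.989), and Igfbp4 by Glipr2 (0.971) and Copz2 (0.966). Igfbp7 was followed by Strap (0.952) and Rrad (0.934), Igf1r by Usp36 (0.979) and Fam193a (0.967), and Igf2r by Adck2 (0.951) and Prkg1 (0.924). Among the members themselves, Igfbp4 and Igfbp6 had r = 0.884 over the 8 libraries and 0.493 once the group means were removed. Igfbp6 and Igfbp7 had r = 0.0647 (0.326 without the group means), and Igf1 and Igf1r had r = 0.781 (0.708). These are only some of the pairs of tested members. Others changed sign without the group means, such as Igf1r and Igfbp6 (0.138, then -0.696).

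**Figure D5:**
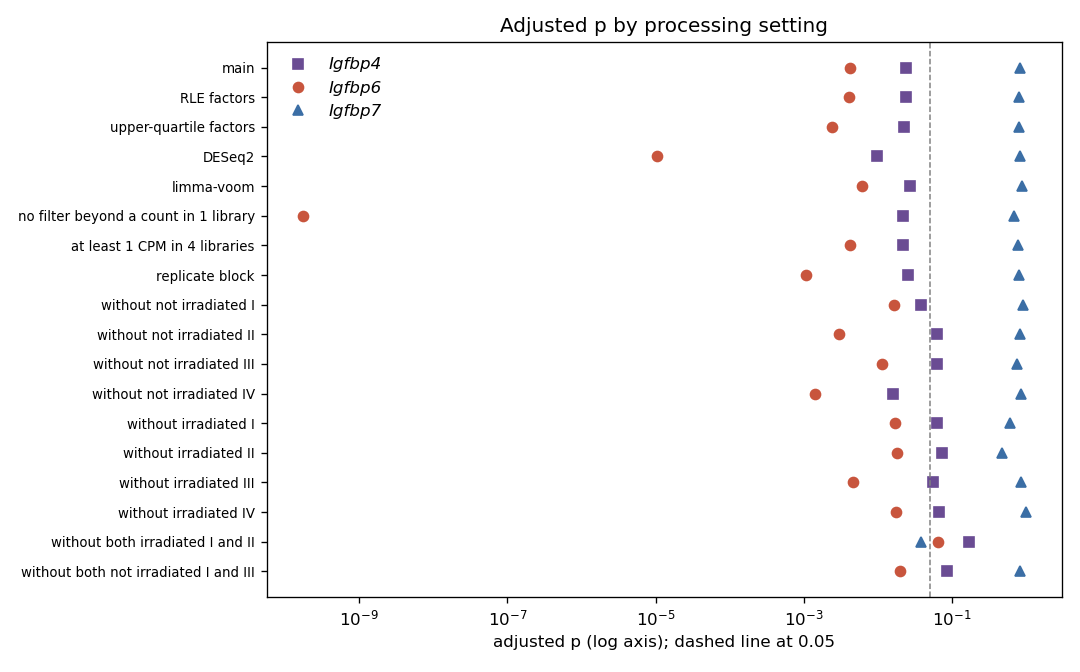
Adjusted p (log axis) of Igfbp4, Igfbp6 and Igfbp7 in the reported fit and in 17 alternative settings, with a dashed line at 0.05. Igfbp6 lies left of the line except without both irradiated I and II (0.0636), the setting in which Igfbp7 crosses it (0.0384), and Igfbp4 crosses it to the right in 8 settings. The settings without a pair of libraries were chosen after the data were seen.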

How the data were processed

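Per the labels, polyA RNA was extracted with a Qiagen RNeasy mini kit. The authors deposited raw counts, whole numbers of reads per Ensembl gene, in 1 file per library. Per the submitters' processing notes, the tools include featureCounts 1.5.0-p1, STAR 2.5.2a and bcl2fastq 2.20.0.422, and the build is mm10. The sources used here give no annotation release, no strand setting and no handling of reads that fit several genes or places. Symbols and exons came from GENCODE M21 (GRCm38, the assembly of mm10), which named 55480 of 55573 identifiers; the 93 without a symbol held 0.000431% of the counts.

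Counts were tested with edgeR 4.0.16 (R 4.3.3): TMM factors, filterByExpr (minimum count 10, minimum total 15), the quasi-likelihood test with group as the sole term, and Benjamini-Hochberg adjustment over all 15259 tested genes. The SE came from the fold change and F statistic, and intervals from the t distribution at the fit's degrees of freedom. The pipeline was tested on simulated data. Alternatives used RLE or upper-quartile factors, DESeq2 1.42.0, limma-voom (limma 3.58.1), other low-count filters, a replicate block, and fits without libraries. Those without pairs of libraries were chosen after seeing the data.

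The members and lists were chosen with earlier results of these data known. All members were named; from each other list, up to 3 called genes with the smallest adjusted p, or the gene with the smallest adjusted p where none was called. Further genes (Pappa, Mmp2, Stc2, Insr, Airn, H19, Igf2bp2, Igfbp1, Pik3cb and Ghr) were named after their values were seen. Genes like a member were the 2 with the highest Pearson r of log2 CPM (prior count 2), both at 10 CPM or more. RefSeq promoter windows (GRCm38.p6) were found for all 10 members.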

Additional observations from a re-analysis of the deposited data

Results flagged for a closer look

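In groups of 4 libraries, the gap from the highest or lowest library to its neighbour was divided by the range of the group and held against Dixon's limit of 0.829. Of 17 groups with counts 2 passed it. Igf2r in the library not irradiated with numeral II stood at 547.5 CPM, against 504.6 to 510.4 CPM in the other 3, a ratio of 0.863; chance alone passes about 1 in 20 groups. Igfbp2 in irradiated II stood at 0.0303 CPM, which is a single count, against 0 in the other 3, so its ratio is 1 by construction and says nothing about an outlying library.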

How the results depend on the processing

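The reported fit called 2 members lower (Igfbp4 and Igfbp6) and 0 higher. These counts did not change with RLE or upper-quartile factors, DESeq2, limma-voom, either other filter or the replicate block. Leaving out 1 library gave 1 to 2 lower and 0 higher members, 221 to 402 higher genes and 415 to 611 lower genes, beside 395 and 634. Without both irradiated I and II there were 0 lower and 1 higher member and 295 lower genes, and without both libraries I and III of those not irradiated 1 lower member. Without the filter 648 genes were higher, and Igfbp6 had an adjusted p = 1.73e-10 at a log2 fold change of -0.39 (the cause was not tested). Over 22 named genes and 373 combinations of gene and setting, 32 lost a call, 17 gained one and 0 reversed a called direction. Deviations of same-numbered libraries from their group means correlated at 0.168, -0.267, 0.401 and 0.119 over 9302 genes. Libraries with different numerals correlated at -0.297 to 0.299. With 4 libraries per group, these values do not settle whether the numerals pair the libraries. With the replicate block, 550 genes were higher and 802 lower, and Igfbp6 (-0.39, adjusted p = 0.00108) and Igfbp4 (-0.21, adjusted p = 0.0258) stayed called. The low counts of Igf1, Igfbp5, Igfbp3 and Igfbp2 limit what could be detected for them.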
